A study of Gallus gallus with 21 samples.

Results

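WFIKKN2, the activin subunit genes INHBA and INHBB, myostatin (MSTN), the follistatin genes FST and FSTL1 and the receptor genes ACVR1, ACVR2A and ACVR2B were followed through the adult chicken contour feather follicle. The 9 genes were taken by name, and the set had been selected on earlier results, in which the TPM of WFIKKN2 in the dermal papilla stood out. Of these, 8 had a row in each of 2 expression tables, which held 13815 and 23789 genes. MSTN had no row under that name in either table. The lowest gene mean in the table of experiment 1 was 1.0013 TPM, and 0 of its genes were at 0 in every library. That of experiment 2 held 4855 such genes. Genes of low level may therefore have no row in experiment 1. A filter on low values, 1 TPM in at least 3 or 2 libraries, was passed by all 8 in experiment 1 and by 7 in experiment 2, where WFIKKN2 did not pass. It left 13804 of the 13815 genes of experiment 1, so passing it there says little. Because of how the set was selected, the levels of WFIKKN2 are given with no test, which leaves 7 tested genes in each experiment.

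The birds were adult white leghorn males, 1 year of age and untreated. Experiment 1 compared 4 components of the follicle in early growth with 3 libraries per component, namely the dermal papilla, the dermal sheath, and the outer (peripheral) and inner (central) pulp. Experiment 2 followed pulp through the cycle with 2 libraries per stage (early growth, late growth, near rest) and added 3 libraries of apical papilla from resting follicles, which makes 12 and 9 libraries. The papilla is the mesenchymal base of the follicle and the pulp is the mesenchyme that fills the growing feather. Whether replicate libraries stem from different birds is not stated, and p-values here reflect only how far these libraries scatter, which could be technical scatter.

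Activins are dimers of inhibin beta subunits. They bind a type II receptor (ACVR2A or ACVR2B), which then activates a type I receptor, and SMAD proteins carry the signal to the nucleus. Follistatin, the product of FST, wraps around activin and myostatin and keeps them from the receptor. WFIKKN2 is a secreted multidomain protein that binds myostatin and GDF11, and in mammals it is known as an inhibitor of both. FSTL1 shares a follistatin-type domain but is known mainly as a secreted glycoprotein with other partners. Follistatin also restrains some bone morphogenetic proteins and is known from developing feather buds.

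Values are TPM, a length-corrected share of all transcripts that adds up to nearly the same total in each library. TPM holds no read totals, so sequencing depth is unknown, and the number of genes at 1 TPM or more ran from 12569 to 13451 over the libraries. The tables were normalized separately, so tests were made within an experiment and levels set across experiments are only placed side by side. With so few libraries per group, a lack of overlap is common and is given below as description only. In experiment 1 the summed level of the 12 papilla markers in the table (of 14 listed) was 2625 to 2689 TPM in the papilla, where CORIN was at 0, and 982 to 1616 TPM elsewhere. In experiment 2, with all 14 in the table, it was 2609 to 2624 TPM in the resting apical papilla, 3284 to 3387 TPM in late growth pulp and 1269 to 2081 TPM in the other pulp libraries, so these markers did not set the apical papilla above pulp. In experiment 2 the near resting pulp libraries differed from each other: the summed level of 12 keratinocyte markers, of which none was at 0, was 14248 TPM in replicate 1 and 3211 TPM in replicate 2. That sum was 1272 to 1580 TPM in early growth pulp, 569 to 576 TPM in late growth pulp and 304 to 446 TPM in the resting apical papilla. The part of keratinocyte RNA in the near resting values was not tested. Those tests of the members against near resting pulp that are described below are therefore also given without replicate 1.

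**Figure D1:**
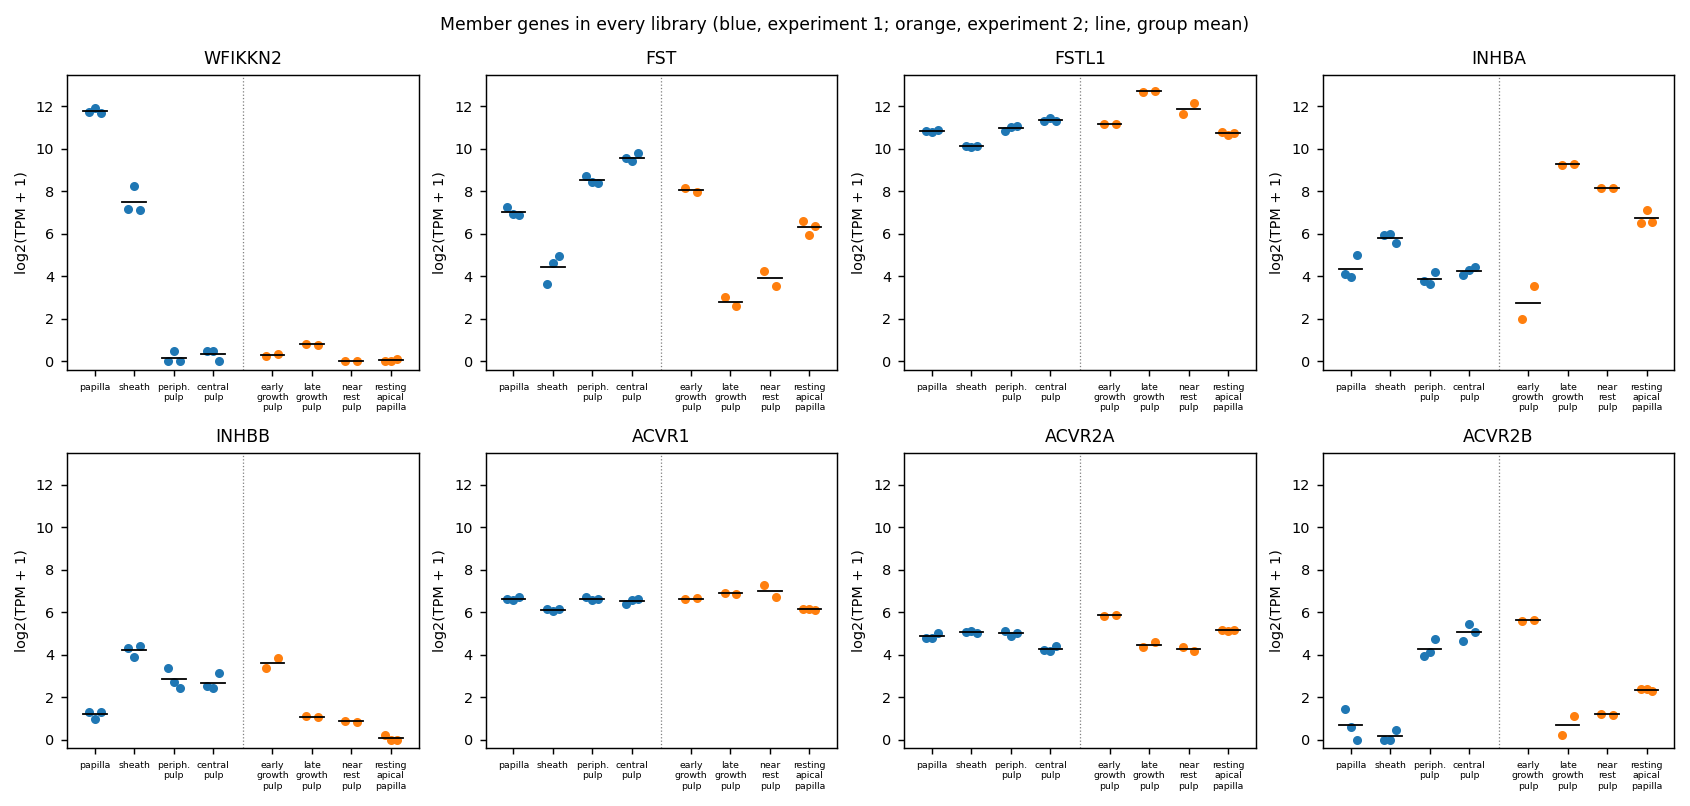
Level of each gene as log2(TPM + 1) in every library, with a line at the group mean (blue, experiment 1; orange, experiment 2). WFIKKN2 stands at 3320.4 TPM or more in the 3 papilla libraries and under 1 TPM in all pulp and resting papilla libraries, while FST and INHBA move in opposite directions between early and late growth pulp.

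WFIKKN2 was one of the most abundant transcripts of the growing papilla. Its level was 3369.6, 3950.0 and 3320.4 TPM in the 3 papilla libraries, which placed its mean 23rd among 13815 genes. In the sheath it was at 143, 306 and 139 TPM. The sheath was thus well below the papilla in every library, with no overlap. In peripheral pulp WFIKKN2 was at 0.386 TPM in replicate 2 and listed at 0 in replicates 1 and 3. Central pulp gave 0.408 and 0.398 TPM in replicates 1 and 2 and a listed 0 in replicate 3. Papilla and sheath together were separated from both pulp parts.

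In experiment 2 WFIKKN2 stayed under 1 TPM in all 9 libraries and did not pass the filter on low values. Early growth pulp gave 0.182 and 0.283 TPM and late growth pulp 0.777 and 0.723 TPM. Both near resting libraries were listed at 0. The resting apical papilla was listed at 0 in replicates 1 and 2 and at 0.0891 TPM in replicate 3. The papilla of the growing follicle and the apical papilla at rest, measured in separate tables, thus lay at opposite ends for this gene. They also differed in smooth muscle markers, of which all 10 listed genes were in both tables. The summed level of these markers was 27880 to 30179 TPM in the growing papilla and 14437 to 18650 TPM in the sheath. It was 192 to 1290 TPM over the pulp libraries of experiment 1 and 264 to 271 TPM in the resting apical papilla. Of the 10, none was at 0 in any of these groups. Of 12 listed skeletal muscle markers, 4 were in the table of experiment 1, against 10 in that of experiment 2. The summed level of the 4 was 3502 to 3792 TPM in the papilla, 2005 to 2909 TPM in the sheath and 2.16 to 48.9 TPM in pulp. In the papilla 3 of the 4 reached 1 TPM, and MYOD1 was at 0. Their means were 3680 TPM for the muscle actin ACTA1, 2.46 TPM for TNNT3 and 1.92 TPM for TNNC2. The papilla sum was thus nearly all ACTA1 and does not stand for the marker set. In the sheath 1 of the 4 reached 1 TPM and TNNC2 was at 0. All 4 reached it in central pulp and 1 did in peripheral pulp. Whether smooth or skeletal muscle RNA has a part in the WFIKKN2 level was not tested, and stage and sampled region cannot be told apart between the 2 papilla groups. In such bulk samples, fewer cells of a type and less RNA per cell cannot be told apart either.

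The genes whose profile over the 12 libraries of experiment 1 was most like that of WFIKKN2 were FAM163B, PXDC1, ATP2B1, DBNDD2 and MTX2. Their Pearson correlations on the log2(TPM + 1) scale lay between 0.993 and 0.995, among 8826 candidate genes. ATP2B1, a plasma membrane calcium pump, averaged 192 TPM in papilla libraries, 75.0 TPM in sheath libraries, with 13.2 TPM in peripheral and 16.0 TPM in central pulp. FAM163B had means of 18.5, 5.47, 0.164 and 0 TPM in the same order. DBNDD2, with means of 876, 254, 37.5 and 54.8 TPM, was the most abundant of the 5. PXDC1 (113, 76.3, 34.4 and 33.8 TPM) and MTX2 (185, 139, 77.7 and 74.9 TPM) had far narrower ranges than WFIKKN2. A correlation does not weigh the size of the differences, here or for the genes below. The 12 libraries fall into 4 parts, so these coefficients mostly describe the differences between parts.

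FST was highest in central pulp and fell step by step through peripheral pulp and papilla to the sheath. Its level was 751, 691 and 888 TPM in central pulp and 425, 343 and 332 TPM in peripheral pulp. The papilla libraries were at 152, 123 and 118 TPM and the sheath libraries at 11.5, 24.1 and 30.1 TPM. No neighbouring parts overlapped. Leukocyte markers, of which 10 of 11 were in the table and none was at 0, were also highest in pulp, with a summed level of 1549 to 1909 TPM in central pulp, 1084 to 1276 TPM in peripheral pulp and 211 to 381 TPM over papilla and sheath. Their part in the pulp levels of FST, and of ACVR2B and BAMBI described further on, was not tested. Central pulp exceeded peripheral pulp with a log2 fold change of peripheral minus central of -1.08 ± 0.27 (SE, adjusted p = 0.014). That call was lost without central pulp replicate 3 (-0.98, adjusted p = 0.055). Papilla against peripheral pulp gave -1.48 ± 0.27 (adjusted p = 0.00072) and papilla against sheath 2.62 ± 0.27 (adjusted p = 3.7e-05). FST and WFIKKN2 therefore had different patterns: FST was lower in the papilla than in pulp, and WFIKKN2 was higher there. The genes most like FST over these libraries were MRS2, MARK1 and HDGFL3 (r of 0.985 to 0.989). HDGFL3 had means of 486 TPM in central pulp, 387 TPM in peripheral pulp, 228 TPM in the papilla and 70.1 TPM in the sheath. MRS2 varied less, with 14.4, 12.4, 10.2 and 7.60 TPM in the same order.

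Across the stages, FST was high in early growth pulp and low from late growth on. It was at 281 and 251 TPM in early growth, 7.18 and 5.05 TPM in late growth and 18.2 and 10.6 TPM near rest. In the resting apical papilla it was at 97.7, 59.8 and 82.8 TPM. The resting papilla thus lay between early growth pulp and the later pulp, with no overlap. Markers of other cells also set it apart from pulp: the 5 erythroid markers in the table summed to 2733 to 5487 TPM in the resting papilla and 247 to 1453 TPM in pulp, and the 10 leukocyte markers to 567 to 579 TPM against 892 to 1342 TPM, with none at 0 in any group. Their part in the differences between resting papilla and pulp, for this and every other gene, was not tested. Tissue and stage both differ in these comparisons and cannot be told apart. Late minus early growth was -5.24 ± 0.29 (log2, SE, adjusted p = 6.7e-06), and resting papilla minus near resting pulp was 2.41 ± 0.27 (adjusted p = 0.00014). Without near resting replicate 1 the latter was 2.77 (adjusted p = 0.00018). Near resting minus late growth pulp was 1.09 ± 0.29 (adjusted p = 0.025), a call that was lost without near resting replicate 1 (0.73, adjusted p = 0.096), without late growth replicate 2 (0.87, adjusted p = 0.13) and in a fit of only these groups (adjusted p = 0.13). ZWILCH, a kinetochore gene, DPT, which encodes the matrix protein dermatopontin, and NCKAP1 were most like FST over these 9 libraries (r of 0.992 to 0.993). DPT had means of 115 TPM in early growth, 0.232 TPM in late growth, 3.87 TPM near rest and 26.6 TPM in the resting papilla. NCKAP1 varied less, with 122, 56.7, 64.1 and 95.2 TPM in the same order.

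FSTL1 was abundant everywhere and varied within narrower limits. In experiment 1 the papilla libraries held 1844, 1791 and 1926 TPM and the sheath libraries 1141, 1079 and 1139.5 TPM. Peripheral pulp gave 1824, 2065 and 2127 TPM and central pulp 2555, 2819 and 2522 TPM. The order was central pulp, peripheral pulp, papilla and sheath, as for FST, but papilla and peripheral pulp overlapped. Papilla minus peripheral pulp was -0.11 ± 0.07 (adjusted p = 0.20), and -0.18 (adjusted p = 0.044) without peripheral pulp replicate 1. Sheath minus papilla was called, with papilla minus sheath at 0.73 ± 0.07 (adjusted p = 1.9e-05).

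Between early and late growth pulp FSTL1 rose while FST fell, and both were lower in the resting papilla than in early growth pulp. FSTL1 was at 2323 and 2328 TPM in early growth pulp, 6624 and 6863 TPM in late growth pulp, 3213 and 4520.1 TPM near rest, and 1773, 1636 and 1711 TPM in the resting papilla. In late growth pulp its mean was the 6th highest of 23789 genes. Late minus early growth was 1.54 ± 0.14 (adjusted p = 7.3e-05) and near resting minus late growth was -0.82 ± 0.14 (adjusted p = 0.0037). The second was -0.58 (adjusted p = 0.00073) without near resting replicate 1 and had an adjusted p of 0.081 in a fit of only these groups. Near resting minus early growth pulp was 0.71 ± 0.14 (adjusted p = 0.0033, and 0.050 in a fit of only these groups), and 0.96 (adjusted p = 3.0e-05) without near resting replicate 1. Resting papilla minus early growth pulp was -0.45 ± 0.13 (adjusted p = 0.015), with adjusted p of 0.067 and 0.065 without early growth replicates 1 and 2.

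INHBA encodes the beta A subunit, 2 copies of which make activin A. In experiment 1 it was highest in the sheath, at 60.0, 62.8 and 45.8 TPM. The papilla was at 16.3, 14.6 and 30.7 TPM, peripheral pulp at 12.7, 11.5 and 17.4 TPM and central pulp at 15.9, 18.4 and 20.5 TPM. The sheath lay above all other libraries, and the other 3 parts overlapped. Papilla minus sheath was -1.47 ± 0.25 (adjusted p = 0.00079), and sheath minus peripheral and minus central pulp was 1.95 ± 0.25 and 1.56 ± 0.25 (adjusted p = 3.6e-05 and 0.00021). Papilla minus peripheral pulp was 0.48 ± 0.25 (adjusted p = 0.12), and 0.67 (adjusted p = 0.048) without papilla replicate 2. After quantile normalization it was 0.64 (adjusted p = 0.035). Keratinocyte markers were also highest in the sheath, with a summed level of 6567 to 9969 TPM against 91.1 to 1767 TPM over the other libraries of experiment 1; none of the 12 was at 0 in the sheath. The 5 erythroid markers summed to 3664 to 4150 TPM in the sheath against 1053 to 2875 TPM elsewhere, and the 9 endothelial markers to 1143 to 1341 TPM against 527 to 863 TPM, with none at 0. The part of these cell types in the sheath levels of INHBA and INHBB was not tested. STARD3, IRX3 and JADE1 were most like INHBA (r of 0.946 to 0.963). IRX3, a homeobox gene, had a mean of 16.0 TPM in the sheath and of 0.892 to 1.40 TPM in the other parts. STARD3 varied less, with 10.7 TPM in the sheath and 6.05 to 7.02 TPM in the other parts.

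INHBA had the widest change between pulp stages of the 7 tested members. It was at 2.97 and 10.6 TPM in early growth pulp and at 610 and 634 TPM in late growth pulp. Near resting libraries were at 285 and 282 TPM, and the resting papilla was at 90.5, 138 and 93.9 TPM. No groups overlapped, and the order was late growth, near rest, resting papilla and early growth. Late growth pulp was also highest in endothelial markers, whose 9 genes summed to 837 to 854 TPM there and 366 to 469 TPM in the other groups, and in smooth muscle markers, at 723 to 733 TPM against 219 to 297 TPM. The summed level of melanocyte markers, 6 of 7 in the table, was 189 to 200 TPM in late growth pulp against 12.3 to 112 TPM. Of these 6, TYR and TYRP1 were at 0 in late growth pulp and 3 reached a mean of 1 TPM there. In early growth pulp all 6 reached it, so the melanocyte sum does not stand for the marker set. The part of these cell types in the late growth levels of INHBA and FSTL1 was not tested. Late minus early growth was 6.52 ± 0.43 (adjusted p = 1.5e-05) and near resting minus early growth 5.39 ± 0.43 (adjusted p = 3.2e-05). Without near resting replicate 1 the latter was 5.38 (adjusted p = 0.00026). Near resting minus late growth was -1.13 ± 0.43 and did not pass (adjusted p = 0.084). Without near resting replicate 1 it was -1.14 (adjusted p = 0.16). It did pass without early growth replicate 1 or 2 (adjusted p = 0.0061 and 0.0062) and in a fit of only these groups (adjusted p = 0.020). Resting papilla minus near resting pulp was -1.42 ± 0.39 (adjusted p = 0.014), with adjusted p of 0.054 and 0.055 without near resting replicates 1 and 2. Resting papilla minus early growth pulp was 3.97 ± 0.39 (adjusted p = 5.5e-05). TULP4, PIM1, a survival kinase, and TOB2 were most like INHBA (r of 0.986 to 0.991). PIM1 had means of 11.2, 168, 81.2 and 46.5 TPM in early growth, late growth and near resting pulp and the resting papilla. TULP4 varied less, with 10.2, 19.7, 16.8 and 15.3 TPM in the same order.

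INHBB, the beta B subunit of activin B, shared the sheath peak of INHBA but not its stage pattern. The sheath libraries were at 19.0, 13.7 and 20.5 TPM and the papilla libraries at 1.45, 0.981 and 1.44 TPM. Peripheral pulp gave 9.20, 5.55 and 4.47 TPM and central pulp 4.71, 4.39 and 7.67 TPM. The sheath was highest, the papilla lowest, and the pulp parts between them overlapped (0.15 ± 0.27, adjusted p = 0.72). Papilla minus sheath was -3.02 ± 0.27 (adjusted p = 9.3e-06).

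Over the stages INHBB was at 9.39 and 13.6 TPM in early growth pulp, 1.17 and 1.07 TPM in late growth and 0.852 and 0.776 TPM near rest. The resting papilla was at 0.177 TPM in replicate 1 and listed at 0 in replicates 2 and 3. Early growth pulp stood above all other libraries. Resting papilla minus near resting pulp was -0.78 ± 0.20 (adjusted p = 0.0091), and -0.75 without near resting replicate 1. Every library of that comparison was under 1 TPM, and the call was lost with the replicate block (-0.74, adjusted p = 0.052). Late minus early growth was -2.54 ± 0.22 (adjusted p = 4.9e-05), whereas near resting minus late growth was -0.22 ± 0.22 (adjusted p = 0.47), and -0.25 (adjusted p = 0.48) without near resting replicate 1. INHBA and INHBB thus moved in opposite directions from early to late growth, both past the threshold.

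MSTN encodes myostatin, the ligand that gave the WFIKKN proteins their best known role. RefSeq's chicken gene table (assembly GRCg7b) lists GDF8 as its synonym, and experiment 2 had a GDF8 row. GDF8 was at 2.45, 0.731 and 1.91 TPM in the resting apical papilla and listed at 0 in all 6 pulp libraries. The table of experiment 1, whose lowest gene mean was 1.0013 TPM, had no row under this name either. Of 10 skeletal muscle markers in the table of experiment 2, 1 reached a mean of 1 TPM in the resting papilla, and MYOG, MYF5, MYF6, TNNC2 and MYH1B were at 0 there.

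The ratio of FST to INHBA within a library does not depend on how the library total was scaled. It was 37.6 to 47.2 in central pulp, 19.2 to 33.4 in peripheral pulp, 3.85 to 9.36 in the papilla and 0.192 to 0.657 in the sheath. FST transcripts therefore outnumbered INHBA transcripts in every library of papilla and pulp and in none of the sheath. In experiment 2 the ratio was 94.6 and 23.7 in early growth pulp, 0.0118 and 0.00797 in late growth pulp and 0.0640 and 0.0378 near rest. In the resting papilla it was 1.08, 0.434 and 0.882. The ratio of INHBA to INHBB was 0.316 and 0.782 in early growth pulp and 335 to 595 in late growth and near resting pulp. Early growth pulp was the only group of experiment 2 in which INHBB exceeded INHBA. In experiment 1 the ratio was above 1 in all 12 libraries, including pulp of the same named stage, where it was 1.39 to 4.19.

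**Figure D2:**
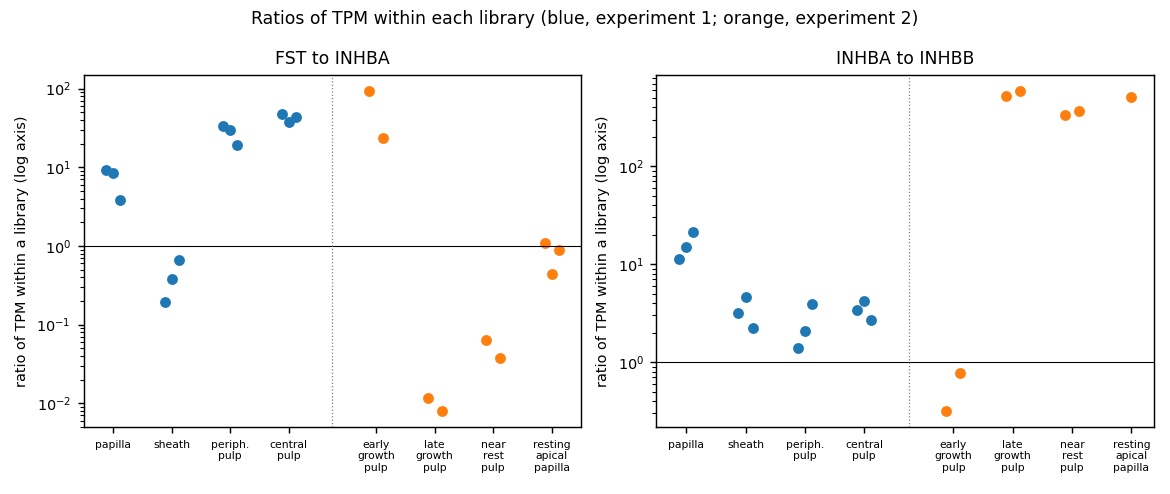
Ratios of TPM within each library on a log axis, FST to INHBA on the left and INHBA to INHBB on the right, with a line at 1 (blue, experiment 1; orange, experiment 2). FST to INHBA runs from 94.6 in early growth pulp to 0.00797 in late growth pulp, and the resting papilla lies near 1; the 2 resting papilla libraries with INHBB listed at 0 have no point on the right.

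The receptors differed in how much they varied. ACVR1 encodes a type I receptor (ALK2) that mainly serves bone morphogenetic proteins and also binds activins. Papilla libraries were at 98.1, 95.4 and 103 TPM, those of peripheral pulp at 102, 93.1 and 97.3 TPM and those of central pulp at 82.9, 93.6 and 96.1 TPM. The sheath, at 70.2, 65.7 and 70.4 TPM, lay below all other libraries. Papilla minus sheath was 0.52 ± 0.07 (adjusted p = 0.00027), and papilla minus peripheral pulp was 0.02 ± 0.07 (adjusted p = 0.86).

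In experiment 2 ACVR1 was at 97.1 and 99.7 TPM in early growth pulp, 120 and 116 TPM in late growth and 156 and 103 TPM near rest. The resting papilla was lowest, at 69.0, 70.6 and 67.7 TPM, with no overlap with pulp. Resting papilla minus near resting pulp was -0.87 ± 0.15 (adjusted p = 0.0015), and -0.57 (adjusted p = 0.00022) without near resting replicate 1. Resting papilla minus early growth pulp was -0.50 ± 0.15 (adjusted p = 0.018), with adjusted p of 0.067 and 0.081 without early growth replicates 1 and 2. Between early and late growth the change, late minus early, was 0.26 ± 0.16 (adjusted p = 0.22) and passed without near resting replicate 1 or 2 (adjusted p = 0.0041 and 0.0040), with median-of-ratios scaling (0.35, adjusted p = 0.045) and in a fit of only these groups (adjusted p = 0.018). Near resting minus early growth was 0.36 ± 0.16 (adjusted p = 0.094). It was 0.07 (adjusted p = 0.39) without near resting replicate 1, 0.66 (adjusted p = 0.00018) without replicate 2, 0.64 (adjusted p = 0.0035) with median-of-ratios scaling and 0.56 (adjusted p = 0.0053) after quantile normalization. Near resting minus late growth was 0.10 ± 0.16 (adjusted p = 0.68), -0.19 (adjusted p = 0.054) without replicate 1 of that stage and 0.40 (adjusted p = 0.0029) without replicate 2. Whether ACVR1 was called between pulp stages therefore turned on the near resting libraries and on scaling. The late minus early estimate itself stayed at 0.26 without either near resting library and in the fit of only these groups.

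ACVR2A, a type II receptor for activins and related ligands, was at 26.3, 27.0 and 31.1 TPM in the papilla, 32.6, 33.7 and 31.9 TPM in the sheath and 33.4, 28.5 and 31.5 TPM in peripheral pulp. Central pulp was lower, at 17.5, 17.2 and 20.3 TPM, without overlap. Peripheral minus central pulp was 0.74 ± 0.10 (adjusted p = 0.00038). Papilla minus sheath was -0.22 ± 0.10 (adjusted p = 0.11; 0.044 with median-of-ratios scaling), and sheath minus peripheral pulp was 0.07 ± 0.10 (adjusted p = 0.56), or 0.28 (adjusted p = 0.031) with that scaling. Early growth pulp of experiment 2 was at 55.4 and 58.3 TPM, late growth at 19.5 and 23.2 TPM, near rest at 19.6 and 17.2 TPM and the resting papilla at 34.4, 33.9 and 34.7 TPM. The change from early to late growth was -1.38 ± 0.11 (adjusted p = 4.1e-05), and near resting minus late growth was -0.20 ± 0.11 (adjusted p = 0.22), with -0.29 (adjusted p = 0.092) without near resting replicate 1. Resting papilla minus near resting pulp was 0.86 ± 0.10 (adjusted p = 2.0e-04), and 0.95 (adjusted p = 0.00031) without near resting replicate 1.

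ACVR2B, the other type II receptor, was a transcript of pulp in early growth. Peripheral pulp was at 14.5, 16.4 and 26.1 TPM and central pulp at 24.1, 42.5 and 32.9 TPM. The papilla was at 1.73 and 0.524 TPM in replicates 1 and 2 and listed at 0 in replicate 3. In the sheath it was listed at 0 in replicates 1 and 2 and at 0.381 TPM in replicate 3. Both pulp parts lay above papilla and sheath without overlap (papilla minus peripheral pulp -3.59 ± 0.36, adjusted p = 4.8e-06; sheath minus central pulp -4.90 ± 0.36, adjusted p = 3.6e-07). The pulp parts overlapped (-0.78 ± 0.36, adjusted p = 0.14).

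In experiment 2 ACVR2B was at 47.5 and 48.5 TPM in early growth pulp, 0.163 and 1.19 TPM in late growth and 1.33 and 1.23 TPM near rest. The resting papilla was at 4.22, 4.14 and 3.96 TPM. For late against early growth the value was -4.94 ± 0.28 (adjusted p = 7.2e-06). Near resting minus late growth was 0.52 ± 0.28 (adjusted p = 0.21), 0.48 (adjusted p = 0.32) without near resting replicate 1 and 0.97 (adjusted p = 0.017) without late growth replicate 2. Resting papilla minus near resting pulp was 1.16 ± 0.26 (adjusted p = 0.0048), and 1.19 (adjusted p = 0.016) without near resting replicate 1. The ratio of ACVR2A to ACVR2B was 1.167 and 1.202 in early growth pulp, 14.0 to 119.5 in the later pulp and 8.14 to 8.77 in the resting papilla. In central pulp of experiment 1 it was 0.404 to 0.725, so that ACVR2B was there the more abundant type II receptor transcript of this pair.

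**Figure D3:**
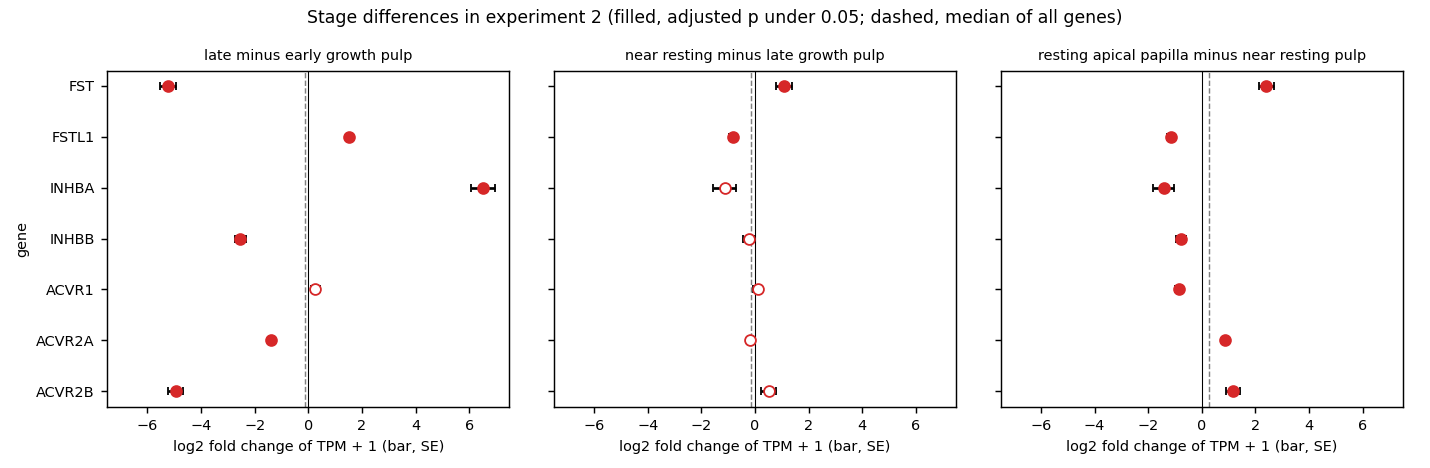
Log2 fold change of TPM + 1 with its SE for the 7 tested genes in experiment 2. The comparisons are late minus early growth pulp, near resting minus late growth pulp, and resting apical papilla minus near resting pulp. The last of these differs in tissue as well as in stage. Filled points passed an adjusted p under 0.05 and the dashed line is the median of all genes tested. From early to late growth INHBA rose by 6.52 while FST and ACVR2B changed by -5.24 and -4.94. INHBA, INHBB, ACVR1 and both type II receptors did not pass between late growth and near rest. INHBA did pass there in a fit of only these groups.

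Counted over the 7 members that were tested, 5 passed between papilla and sheath, where 37.7% of all tested genes did. For papilla against peripheral pulp the count was 3 of 7 (57.3% of all genes), and for papilla against central pulp 5 of 7 (52.9%). Sheath against peripheral pulp gave 6 of 7 (59.4%), sheath against central pulp 7 of 7 (56.5%) and peripheral against central pulp 3 of 7 (25.2%). In experiment 2, 6 of 7 passed between late and early growth (53.3%), 2 of 7 between near rest and late growth (31.1%) and 6 of 7 between near rest and early growth (55.9%). The resting papilla differed in 7 of 7 from near resting (62.5%), late growth (58.3%) and early growth pulp (65.7%). Since the members were picked with results known, nothing is read from these counts.

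A list of 64 other gene symbols of the activin, myostatin and transforming growth factor pathway was examined next. It held both CTGF and CCN2, which name the same gene, and only CTGF had a row. Of the 64 symbols, 43 were tested in experiment 1 and 45 in experiment 2. Beside each count stands the share of all tested genes called in that direction. Between papilla and sheath, 8 of 43 were higher in the papilla (21.7% of all genes), 7 lower (16%) and 28 were not called, with a median log2 fold change of 0.01 against 0.06 for all genes. Papilla against peripheral pulp gave 16 higher (21.7%), 13 lower (35.6%) and 14 not called, with a median of 0.10 against -0.17. After median-of-ratios scaling these were 19 and 11, with 3753 higher and 3913 lower among all genes. Against central pulp the papilla had 16 higher (23.7%), 8 lower (29.2%) and 19 not called. For the sheath against peripheral pulp there were 17 higher (20.2%), 15 lower (39.1%) and 11 not called, which became 21 and 11 after that scaling, where all genes gave 3806 higher and 3905 lower. The sheath against central pulp gave 19 higher (22.9%), 12 lower (33.6%) and 12 not called, with a median of 0.32 against -0.11. Peripheral against central pulp gave 9 higher (15.6%), 5 lower (9.51%) and 29 not called, and 9 and 8 with that scaling (1369 and 1817 among all genes).

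In experiment 2, 17 of the 45 pathway genes rose from early to late growth (22.4% of all genes), 11 fell (30.8%) and 17 were not called, with a median of 0.25 against -0.11. Near rest against late growth gave 3 higher (8.77%), 11 lower (22.3%) and 31 not called, and 5 and 9 with median-of-ratios scaling, where all genes gave 2052 higher and 2022 lower. In a fit of only these groups the total of 14 became 6, and that of all genes went from 4641 to 1443. Near rest against early growth gave 11 higher (18.7%), 12 lower (37.3%) and 22 not called, and 19 and 11 with that scaling, where all genes gave 4177 higher and 4087 lower. Against near resting pulp, 14 genes were higher in the resting papilla (40.9%), 13 lower (21.6%) and 18 not called, with a median of 0.00 against 0.25. That scaling turned the order to 11 higher and 15 lower, with 4456 higher and 4508 lower among all genes. Counts without near resting replicate 1 are not given separately, because that group would then hold a single library. The values of single genes given without that replicate share this limit. Against late growth pulp the papilla had 14 higher (32.5%) and 15 lower (25.8%), and against early growth pulp 15 higher (32.1%) and 18 lower (33.6%). SMAD2, SMAD4 and SMAD7 had no row under these names and were not analysed here.

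Among ligands of experiment 1, GDF11, which WFIKKN2 binds, was at 15.4, 8.83 and 11.3 TPM in papilla libraries, above the 3.03, 3.90 and 4.72 TPM of the sheath. It was higher in peripheral pulp (25.5 ± 7.76 TPM, SD, n = 3) and central pulp (22.5 ± 1.00 TPM), the parts where WFIKKN2 was under 1 TPM. Papilla minus sheath was 1.38 ± 0.24 (adjusted p = 0.00089) and papilla minus central pulp -0.90 ± 0.24 (adjusted p = 0.0073). WFIKKN2 was under 1 TPM throughout experiment 2, but GDF11 was not uniformly high there. Its means were 10.7 TPM in early growth, 12.0 TPM in late growth and 4.30 TPM in near resting pulp. The resting papilla had a mean of 3.87 TPM. In experiment 1 GDF3, an embryonic ligand of the activin-related branch, had the same order of parts as GDF11. Its means were 76.3 and 60.7 TPM in peripheral and central pulp, 27.8 TPM in papilla and 6.34 TPM in sheath. TGFB2 ran the other way, at 43.0 ± 1.84 TPM in sheath and 25.3 ± 2.48 TPM in papilla, while peripheral and central pulp gave 2.04 ± 0.542 and 8.62 ± 2.13 TPM (papilla minus peripheral pulp 3.13 ± 0.18, adjusted p = 5.2e-08). LEFTY2, an antagonist of nodal, was at 4.12 ± 2.88 TPM in peripheral pulp and under 1 TPM on average elsewhere.

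FSTL3, a follistatin relative that also binds activin, had a pattern unlike that of FST. In the sheath it was at 76.7, 62.0 and 57.8 TPM, in the papilla at 36.9, 26.9 and 36.4 TPM, in peripheral pulp at 18.3, 15.7 and 5.40 TPM and in central pulp at 32.9, 1.27 and 9.30 TPM. The central pulp libraries were far apart from each other. Sheath minus central pulp was 2.84 ± 0.79 (adjusted p = 0.011; 0.056 in a fit of only these groups). In experiment 2 FSTL3 was at 143, 156 and 147 TPM in the resting papilla, 2.07 and 4.98 TPM in early growth pulp and 0.781 and 0.966 TPM in late growth pulp. Near resting replicate 1 was at 34.4 TPM and replicate 2 at 2.13 TPM. Resting papilla minus near resting pulp was 3.83 ± 0.85 (adjusted p = 0.0049), and 5.58 (adjusted p = 2.0e-05) without near resting replicate 1. The ratio of FST to FSTL3 was 0.383 to 0.682 in the resting papilla and 50.4 and 135 in early growth pulp.

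BAMBI, a receptor-like decoy without a kinase, had group means in the same order as FST in experiment 1: 577 ± 36.0 TPM in central pulp, 387 ± 162 TPM in peripheral pulp, 121 ± 13.9 TPM in the papilla and 25.2 ± 2.18 TPM in the sheath. The pulp parts did not pass for it (-0.65 ± 0.22, adjusted p = 0.051), and did without peripheral pulp replicate 1 (-0.97, adjusted p = 0.00031), with the filter at 5 TPM (adjusted p = 0.049), after median-of-ratios scaling (0.037) or quantile normalization (0.046), and with the replicate block (0.026). Over the stages BAMBI went the other way, at 196 ± 6.52 TPM in early growth and 962 ± 5.49 TPM in late growth pulp (SD, n = 2). The log2 fold change was 2.29 ± 0.09 (SE, adjusted p = 1.8e-06). BAMBI was at 454 and 545 TPM in near resting replicates 1 and 2 and 83.0 ± 1.99 TPM (SD, n = 3) in the resting papilla. Below, ± after a mean TPM is likewise an SD, over 2 libraries for a pulp stage of experiment 2 and over 3 for other groups. TGFBR3, a co-receptor that binds inhibin and transforming growth factor beta, was at 75.4 ± 2.94 TPM in early growth, 12.9 ± 2.47 TPM in late growth, 6.34 and 5.03 TPM near rest and 39.4 ± 7.37 TPM in the resting papilla. Early to late growth gave -2.47 ± 0.20 (adjusted p = 3.7e-05). CFC1, a co-receptor of nodal signalling, was at 37.5 and 36.5 TPM in early growth pulp and listed at 0 in the 7 other libraries of experiment 2. TLL2, a tolloid protease, was likewise at 3.65 and 5.00 TPM in early growth pulp and listed at 0 in those 7 libraries.

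The related tolloid protease gene TLL1 was at 11.9 ± 3.46 TPM in peripheral and 1.21 ± 0.493 TPM in central pulp (2.54 ± 0.27, adjusted p = 5.9e-05). PCSK6, a convertase that cleaves ligand precursors, was at 210 ± 10.3 TPM in peripheral pulp, 164 ± 12.7 TPM in central pulp, 83.6 ± 7.82 TPM in the papilla and 52.7 ± 1.14 TPM in the sheath. Of the secreted proteases HTRA1 and HTRA3, the first was at 691 ± 117 TPM in sheath, 508 ± 59.2 TPM in papilla; peripheral and central pulp gave 171 ± 39.5 and 155 ± 18.0 TPM. HTRA3 was at 68.3 ± 3.76, 40.2 ± 4.73, 8.21 ± 2.53 and 14.6 ± 4.60 TPM in the same order. HTRA1 reached 1026 ± 85.2 TPM in the resting papilla against 168 ± 16.8 TPM in early growth pulp (2.61 ± 0.25, adjusted p = 4.5e-05). TLL1, by contrast, was at 11.3 ± 1.02 TPM in late growth pulp and 0.203 ± 0.158 TPM in the resting papilla (-3.37 ± 0.33, adjusted p = 7.2e-05).

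Among intracellular regulators and targets, SKIL, a SMAD co-repressor that is itself induced by activin-type signals, was lowest in early growth pulp and highest in the resting papilla. It was at 6.86 ± 0.927 TPM in early growth, 19.7 ± 0.747 TPM in late growth, 25.2 and 16.8 TPM near rest and 44.3 ± 4.13 TPM in the resting papilla. Between early and late growth the change, late minus early, was 1.41 ± 0.19 (adjusted p = 0.00055) and resting papilla minus near resting pulp 1.06 ± 0.18 (adjusted p = 0.0011; 1.34 and 0.00026 without near resting replicate 1). CTGF, a matricellular target, was at 197 ± 5.58 TPM in early growth, 1072 ± 312 TPM in late growth, 1073 and 813 TPM near rest and 121 ± 35.5 TPM in the resting papilla. The change from early to late growth was 2.41 ± 0.29 (adjusted p = 0.00032). FBN1, the fibrillin that anchors latent ligand complexes, was at 254 ± 15.2 TPM in the resting papilla against 1393 ± 26.8 TPM in late growth pulp (-2.45 ± 0.21, adjusted p = 3.4e-05).

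**Figure D4:**
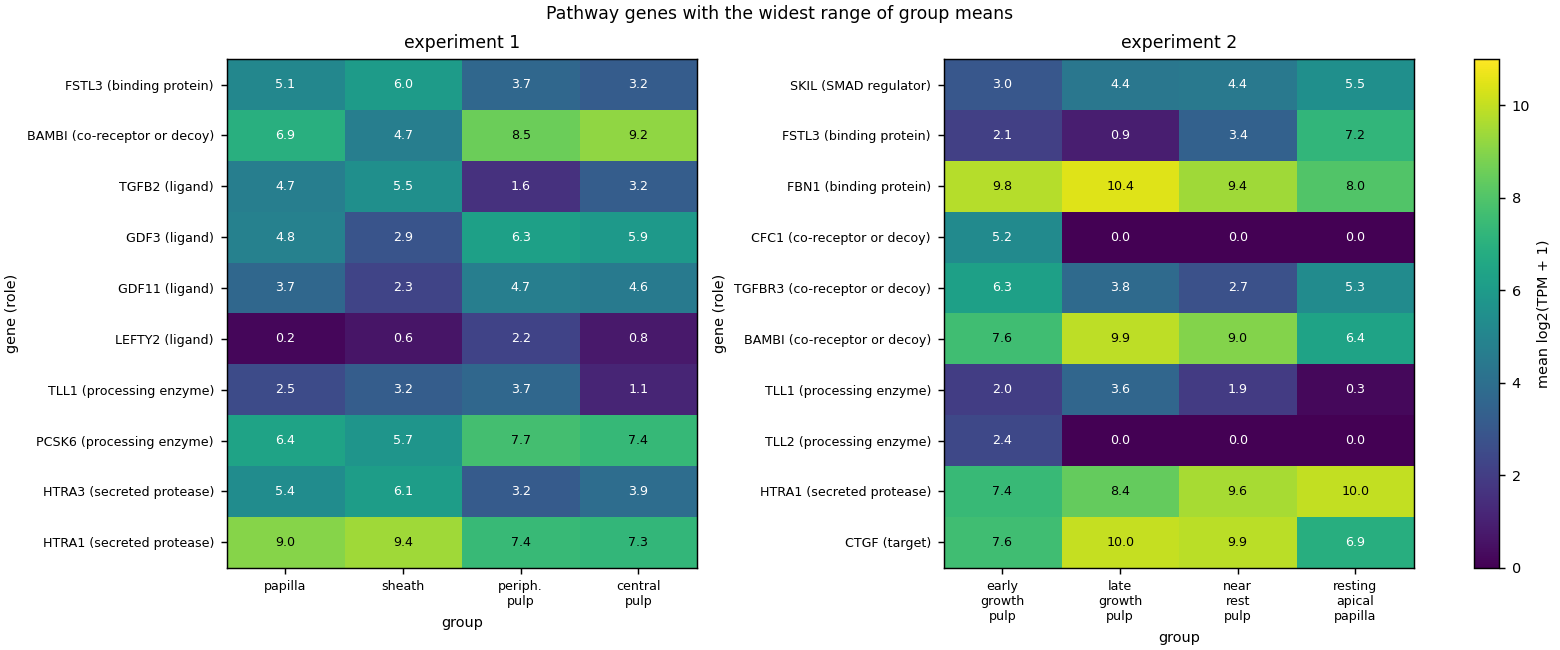
Mean log2(TPM + 1) by group for the 10 pathway genes of each experiment with the widest range of group means, with the role of each gene in brackets. In experiment 2, CFC1 and TLL2 are at 0 outside early growth pulp, and FSTL3 is highest in the resting apical papilla.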

How the data were processed

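For each experiment the authors deposited gene-level TPM values, which keep no depth (library sums of 991607 or more). The submitters' processing notes list TopHat2 2.1.1, Cuffdiff 2.2.1.3 and Cufflinks 2.2.1.2 but assign them no step, and neither build nor annotation is given in the sources used here. Groups and replicate numbers came from the labels.

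Differences were computed from the deposited TPM on log2(TPM + 1) with limma 3.58.1 (R 4.3.3), fitting a mean per group to every library of an experiment, with trended, robust moderated variances. Genes needed 1 TPM in at least 3 (experiment 1) or 2 (experiment 2) libraries, which left 13804 and 14915 genes. P-values were two-sided and were adjusted over all of them by the Benjamini-Hochberg method and called under 0.05. A lack of overlap between groups is no test. Between near rest and late growth pulp, 28 of the 45 pathway genes did not overlap, while 14 were called. Fold changes on this scale understate changes of low genes, and an exact 0 is given only as listed at 0. The fit was tested on simulated data. Replicate libraries were compared before use (SD of their log2 difference 0.32 to 0.64) and none was near-identical.

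The members and lists were chosen with earlier results of these data known. Named besides the members were the 10 pathway genes per table with the widest range of group means among those called, and the 5 (WFIKKN2) or 3 (FST, INHBA) most correlated genes with a unique symbol and at least 10 TPM in their highest group.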

Additional observations from a re-analysis of the deposited data

How the results depend on the processing

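No called direction of a member or named pathway gene reversed under any alternative run (median-of-ratios or quantile scaling, a filter at 5 TPM or none, a pseudocount of 0.1, plain variances, the replicate block, a fit of only the groups compared, and leaving out each library). Of 672 member values under the alternatives other than leaving out a library, 13 changed sides of the threshold. These include the fit of only the groups compared. With a library left out, 18 of 882 did. Where leaving out a library left a group with 1, that library is assumed to vary like the other groups. For near rest against late growth pulp, calls over all genes went from 4641 to 1443 and those of the pathway list from 14 to 6 in a fit of only these groups, and to 2782 to 5459 and 8 to 21 with a library left out. The pathway list's 14 calls for peripheral against central pulp became 9 in a fit of only these groups, and 9 to 20 with a library left out (9 without peripheral pulp replicate 2). Calls over all genes there went from 3472 to 2454 in that fit, and to 2467 to 3583 with a library left out. The cause was not tested. Median-of-ratios scaling moved the median of all genes by 0.23 for near rest against early growth, 0.16 for near rest against late growth, -0.25 for resting papilla against near rest, and in experiment 1 by up to 0.20. With it, near rest against late growth gave 2052 higher and 2022 lower calls in place of 1308 and 3333. Deviations of same-numbered libraries from their group means correlated above 0.1 in 1 of 18 and 1 of 12 pairs. Of the libraries, 6 of 12 and 4 of 9 correlated best with their own number. A weak pairing could be missed here, so whether the numbers pair the libraries is not settled. With the replicate block, ACVR1 in resting papilla against early growth pulp (-0.49, adjusted p = 0.054) and INHBB in resting papilla against near rest (-0.74, adjusted p = 0.052) were no longer called. Depth is unknown, so values under about 1 TPM have no stated precision.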
